A study of Mus musculus with 69 samples.

Results

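The lungs of mice given 54 µg of the positively charged titanium dioxide nanoparticle NRCWE-002 were compared with the lungs of mice given the vehicle alone, both taken on day 1 after a single instillation into the trachea. These were 10 of the 69 arrays of the series, chosen by their labels, with 5 exposed and 5 vehicle mice and 1 mouse per array. All were female C57BL/6 mice, obtained at 5 to 7 weeks of age and kept for 1 to 3 weeks before exposure. The vehicle was 2% serum in water, which the sample titles give as H2O, and the exposed mice received it too. RNA came from a small frozen section of lung, so that the share of airway, vessel or other tissue in a section was not fixed. Other arrays were used only to place this dose beside 18 and 162 µg of NRCWE-002, beside 54 µg of NRCWE-001, the uncharged particle, and beside 54 µg of NRCWE-002 on day 28. These groups had 5 mice each, and the vehicle group of day 28 had 4.

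Every value is a log2 ratio of lung RNA, labelled with Cy5, to a commercial mouse reference RNA, labelled with Cy3. A level therefore describes a gene relative to its own reference, and levels of different genes were not compared. A difference of 1 between groups is a change of 2-fold. Of the 10 arrays, 62.9% to 87.8% of the spots were well above background in the sample channel, and the number of arrays limits the precision of each mean. Correlation between the exposed arrays over probes was 0.921 to 0.974, and between the vehicle arrays 0.964 to 0.983. The lung genes Sftpc, Sftpb, Scgb1a1 and Ager were above background on all 10 arrays. The arrays lay on several slides, and slides 5 and 12 held 1 array of each group. Vehicle replicates 1 to 3 lay on slides 13, 15 and 17 and shared no slide and no scan day with an exposed array. Exposed replicates 2 to 4 lay on slides 8, 10 and 1, which held no vehicle array of day 1. Exposure can thus be told apart from slide and scan day only in part. Replicate numbers name the arrays and pair nothing.

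The acute phase response is a rapid rise of a set of secreted proteins after injury or infection, driven by cytokines such as interleukin-1 and interleukin-6. The liver makes most of these proteins, and the lung is known to transcribe some of them after particles are inhaled. The serum amyloid A proteins are the most responsive members in mice. Other members bind iron, haem or copper, or inhibit proteases.

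On day 1, 20 of 17627 genes differed between the exposed and the vehicle lungs at a Benjamini-Hochberg adjusted p below 0.05 in limma, which is 0.113% of the genes tested. Of these, 14 rose and 6 fell, and 13 differed by more than 2-fold. Of the 14 genes that rose, 9 were acute-phase genes, among them the serum amyloid A genes Saa1, Saa2 and Saa3. The genes that fell included Siglecf, Ear1 and Fabp1, which resident alveolar macrophages are known to express. Other genes known from these cells did not all fall, and several had small positive fold changes. In 19 of the 20 genes the 5 exposed arrays lay wholly on one side of the 5 vehicle arrays, a separation that 3.22% of all genes had, 1.8% above and 1.42% below. The exception was Ces1d. At an unadjusted p below 0.05, 1190 genes passed.

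The number of calls moved with the treatment of the slides and with single arrays. With slide as a fixed block 267 genes were called, 1.51% of those tested, 197 of them higher (1.12%) and 70 lower (0.397%), and all 20 genes were among them. With log ratios made from the scanner signals by normexp and loess, 11 genes were called, all of them higher. Without exposed replicate 4, and likewise without vehicle replicate 4, 6 genes were called. The count was 7 without vehicle replicate 3 and 10 without each of exposed replicate 1, exposed replicate 5 and vehicle replicate 2. Without exposed replicate 2 it was 25. Saa2, Saa3 and Hpx stayed below the threshold with every array left out in turn.

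**Figure D1:**
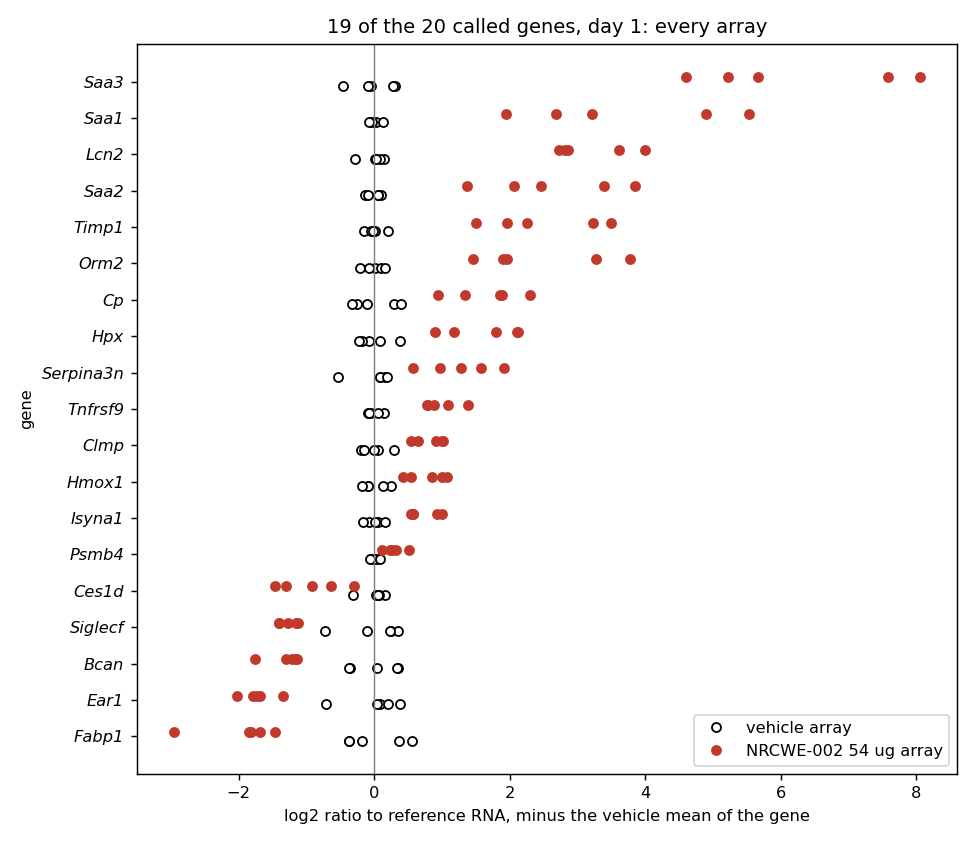
Log2 ratio of 19 of the 20 called genes on each of the 10 arrays, minus the mean of the 5 vehicle arrays of that gene, with open circles for vehicle and filled circles for NRCWE-002 54 µg. The exposed arrays of Saa3 spread over more than 3 log2 units, and the filled and open circles overlap only for Ces1d.

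Of all genes that rose, Saa3 and Saa1 had the largest fold changes, and Saa2 came after Lcn2. Saa3, the member made mainly outside the liver, had log2 ratios of 4.09, 1.099, 1.72, 4.56 and 2.17 on exposed arrays 1 to 5 and of −3.19, −3.54, −3.22, −3.95 and −3.59 on vehicle arrays 1 to 5. All exposed arrays were above all vehicle arrays, and exposed replicates 1 and 4 were the highest. Saa3 thus rose by 6.22 on the log2 scale, or 74.8-fold (adjusted p = 0.00477, SE 1.16). Saa1, a main circulating form, had 4.10, 1.15, 1.88, 4.73 and 2.42 on the exposed arrays against −0.85, −0.76, −0.67, −0.83 and −0.88 on the vehicle arrays, a rise of 3.65 (adjusted p = 0.00477, SE 0.68). The order of the exposed arrays was the same as for Saa3. The 2 probes of Saa1 differed by 2.61 and 4.70, and the one with the smaller difference was above background on 1 vehicle array. Saa2 had 3.39, 1.37, 2.07, 3.86 and 2.46 on the exposed arrays against −0.13, 0.10, 0.06, −0.09 and 0.06 on the vehicle arrays, a rise of 2.63 (adjusted p = 0.00454, SE 0.45). Saa1 and Saa2 are near-identical genes, and their probes may each read both transcripts. Saa4, the form not known to respond to injury, differed by 0.27 and was not called (adjusted p = 0.731). It was above background on only 3 exposed arrays and 1 vehicle array, so this value cannot show that Saa4 stayed unchanged.

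The starts of Saa1, Saa2 and Saa3 are close together on chromosome 7, and the 250 bases before each are shown because these genes moved together. The sequences are from RefSeq, build GRCm38.p6. Saa1 is on the minus strand at chr7:46742981-46743230, Saa2 on the plus strand at chr7:46751583-46751832 and Saa3 on the minus strand at chr7:46715677-46715926. Lcn2 on the minus strand at chr2:32387740-32387989 and Orm2 on the plus strand at chr4:63362199-63362448 are added as called genes outside that cluster. Capitals mark the C/EBP core TTGCNNAA, read on both strands, where C/EBP names a family of factors known for acute-phase transcription.
Saa1: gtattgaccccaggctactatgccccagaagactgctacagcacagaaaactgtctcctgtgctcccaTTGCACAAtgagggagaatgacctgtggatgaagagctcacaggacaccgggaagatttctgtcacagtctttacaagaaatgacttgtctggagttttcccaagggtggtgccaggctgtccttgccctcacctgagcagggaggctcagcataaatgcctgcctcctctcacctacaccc
Saa2: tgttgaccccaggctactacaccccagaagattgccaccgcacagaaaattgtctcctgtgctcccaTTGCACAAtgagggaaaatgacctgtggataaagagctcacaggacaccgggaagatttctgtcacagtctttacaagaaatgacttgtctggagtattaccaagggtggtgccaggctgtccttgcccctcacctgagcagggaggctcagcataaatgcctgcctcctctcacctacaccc
Saa3: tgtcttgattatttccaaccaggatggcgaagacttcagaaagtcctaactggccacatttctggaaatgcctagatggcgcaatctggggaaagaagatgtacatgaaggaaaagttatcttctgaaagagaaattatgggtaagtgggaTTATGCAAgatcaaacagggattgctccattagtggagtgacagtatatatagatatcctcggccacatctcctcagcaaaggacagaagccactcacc
Lcn2: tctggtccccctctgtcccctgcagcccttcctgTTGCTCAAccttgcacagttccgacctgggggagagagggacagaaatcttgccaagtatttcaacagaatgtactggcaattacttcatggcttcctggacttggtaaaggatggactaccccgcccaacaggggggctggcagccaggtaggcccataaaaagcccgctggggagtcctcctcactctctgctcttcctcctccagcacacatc
Orm2: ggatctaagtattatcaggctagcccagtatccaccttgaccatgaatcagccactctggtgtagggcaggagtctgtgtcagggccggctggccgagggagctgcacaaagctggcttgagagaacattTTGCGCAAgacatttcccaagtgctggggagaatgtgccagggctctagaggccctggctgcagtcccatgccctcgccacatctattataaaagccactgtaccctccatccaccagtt
Of the 20 called genes, 16 had a promoter window in the table, from 250 bases before to 50 after the start. The core was in a window of 9 of these 16 genes, namely Saa1, Saa2, Saa3, Orm2, Hpx, Lcn2 and Cp among those that rose and Ear1 and Fabp1 among those that fell. It was in 10.8% of all 32851 windows of the same length. The STAT core TTCNNNGAA was in the windows of 1 of the 16 genes, against 8.3% of all windows, and the NF-kB consensus likewise in 1, against 8.46%. A match is a description of the letters, not evidence of binding.

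The iron-, haem- and copper-binding acute-phase genes rose with them. Lcn2 encodes lipocalin 2, which holds iron away from bacteria, and its log2 ratio was 4.66, 3.86, 3.78, 5.04 and 3.91 on the exposed arrays against 1.20, 1.13, 1.06, 1.08 and 0.76 on the vehicle arrays. It rose by 3.21 (adjusted p = 0.0103, SE 0.63), and the 2 groups were more than 2 log2 units apart. Hpx, or haemopexin, carries free haem, and had 2.02, 0.81, 1.71, 2.03 and 1.096 against −0.16, 0.01, −0.26, −0.31 and 0.30, a rise of 1.62 (adjusted p = 0.00454, SE 0.29). Cp, or ceruloplasmin, the plasma copper carrier and ferroxidase, had 1.25, 0.30, 1.22, 1.66 and 0.70 against −0.34, −0.75, −0.90, −0.96 and −0.24, a rise of 1.66 (adjusted p = 0.0103, SE 0.33). Exposed replicate 2 was the lowest exposed array of both genes and still above all vehicle arrays. Hmox1 encodes haem oxygenase 1, which breaks haem down, and rose by 0.78 (adjusted p = 0.0302, SE 0.17). The exposed arrays of Hmox1 lay between −1.23 and −0.58 and the vehicle arrays between −1.84 and −1.41. Of the 20 tested genes of iron and haem handling, these 4 rose, where 0.0794% of all genes rose, and none fell, with a median log2 fold change of 0.39. Under the slide block 8 rose, where 1.12% of all genes did, adding Hp, Slc40a1, Steap4 and Tfrc, while Ltf, or lactotransferrin, at 1.23 was called in neither fit.

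Acute-phase genes with other roles also rose. Orm2, an orosomucoid that binds drugs and lipids in plasma, had 3.40, 1.59, 2.10, 3.91 and 2.03 on the exposed arrays. It was not well above background on any of the 5 vehicle arrays, so that its mean was at least 5.00-fold higher in the exposed lungs (adjusted p = 0.00477). Timp1, an inhibitor of matrix metalloproteinases, had 0.88, −0.66, −1.11, 0.60 and −0.37 against −2.42, −2.78, −2.60, −2.67 and −2.64, a rise of 2.49 (adjusted p = 0.0106, SE 0.50). Its 2 probes gave 1.85 and 3.13. Serpina3n, a serine protease inhibitor, had 3.23, 2.23, 2.63, 3.57 and 2.94 against 1.82, 1.75, 1.74, 1.12 and 1.85, a rise of 1.27 (adjusted p = 0.0412, SE 0.29). Vehicle replicate 4 was low for Serpina3n, and without it the call was lost, as it was without each of 8 other arrays.

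Of the 25 tested acute-phase genes, 9 rose and none fell, where 0.0794% of all genes rose. Their median log2 fold change was 0.79, where that of all genes tested was 0.01. The mean log2 ratio over the list was 0.84 to 2.01 on the exposed arrays and 0.00 to 0.17 on the vehicle arrays. With slide as a block 15 rose, where 1.12% of all genes did, adding Orm1, Orm3, Hp, Itih4, Mt2 and Serpina3m. Of the members made mainly by the liver, Crp, Apcs, Fga and Fgb were each above background on at most 2 of the 5 arrays of either group, and their differences are not given. Fgg, the third fibrinogen chain, was above background on all 10 arrays and differed by 0.35 (adjusted p = 0.904). Of 11 hepatocyte markers, none was called in either fit and their median was −0.04.

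Among the exposed mice the size of the rise was not even. Exposed replicates 1 and 4 were the highest and the second highest array in each of the 14 genes that rose. Exposed replicate 2 was the lowest of the 5 in 9 of the 14, replicate 3 in 4 and replicate 5 in 1. Exposed replicate 2 also stood apart in signal, with 87.8% of its spots well above background and a median lung intensity of 216, where the other 9 arrays had at most 72.8% and 139, and the part of this in its lower values was not tested. Without it 25 genes were called, 18 of them among the 20. Without exposed replicate 4 the adjusted p rose to 0.0615 for Orm2 and Saa1 and to 0.0696 for Lcn2, and those calls were lost. Of the other 14 genes that lost their call with some array left out, Siglecf was nearest the threshold, at 0.0674 or less, and Psmb4 went highest, at 0.322.

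**Figure D2:**
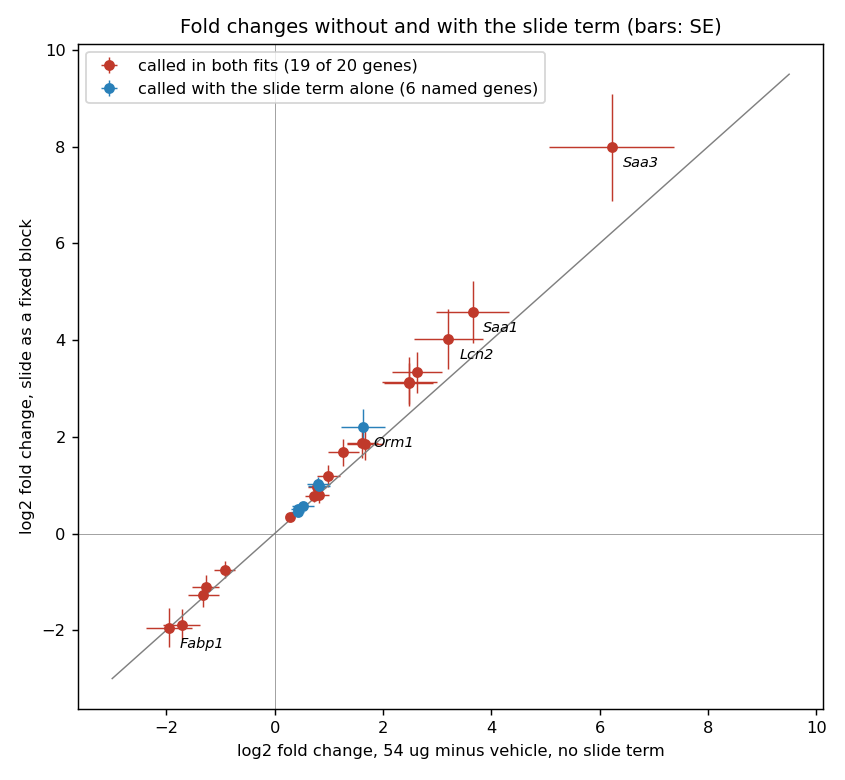
Log2 fold change of NRCWE-002 54 µg against vehicle without a slide term (horizontal) and with slide as a fixed block (vertical) for 19 of the 20 called genes and 6 genes called with the slide term alone, with bars for the standard error and a line of equality. Saa3 moved from 6.22 to 7.99 and Lcn2 from 3.21 to 4.02, while Fabp1 was −1.95 in both.

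With slide as a fixed block the fold changes of the 9 called acute-phase genes were larger, at 7.99 for Saa3, 4.58 for Saa1, 4.02 for Lcn2 and 3.33 for Saa2. The 2 slides that held both groups gave different sizes. On slide 5, exposed replicate 1 exceeded vehicle replicate 4 by 8.04 for Saa3 and by 3.58 for Lcn2. On slide 12, exposed replicate 5 exceeded vehicle replicate 5 by 5.76 and by 3.15. Hpx gave 2.33 on slide 5 and 0.79 on slide 12, and Cp 2.21 and 0.94. Of the genes that fell, Siglecf gave −1.35 and −0.67, Bcan −1.35 and −0.80, Ear1 −1.90 and −1.31 and Fabp1 −2.05 and −1.44. Ces1d had the larger fall on slide 12, at −0.97 and −1.16. Of the genes called with the slide term alone, the 6 with the smallest p were Tmem176b, Tmem176a, Calr, Cad, Orm1 and Fads2. Tmem176a and Tmem176b are neighbouring genes for membrane proteins of myeloid cells, with log2 fold changes of 0.98 and 1.03 in that fit (adjusted p = 4.48e-05 and 1.93e-05) and of 0.81 and 0.81 without it. Calr, the calcium-binding chaperone of the endoplasmic reticulum, was 0.57 with the slide term, Cad, the enzyme that starts pyrimidine synthesis, 0.45, and Fads2, a fatty acid desaturase, 0.51. All 5 exposed arrays of each of these 6 genes were above all vehicle arrays. A list of 20 genes of protein translocation and glycosylation in the endoplasmic reticulum, drawn up after values were seen, had 20 positive fold changes with a median of 0.22, where 9448 of all 17627 genes were positive. None of them was called without the slide term and 9 were called higher with it, where 1.12% of all genes were, among them Sec61g at 0.55, Ddost at 0.42 and Rpn1 at 0.41. The list holds Calr and followed the values, so its counts are no test against the shares of all genes. Sdf2l1, an induced chaperone of the unfolded protein response, had 0.83 without the slide term and was called with it at 1.08 (adjusted p = 0.00767).

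The remaining genes that rose were of varied function. Clmp, a cell adhesion molecule of tight junctions, rose by 0.82 (adjusted p = 0.0186, SE 0.17). Its exposed arrays lay between −0.18 and 0.30 and its vehicle arrays between −0.92 and −0.43. Tnfrsf9, the co-stimulatory receptor 4-1BB of activated lymphocytes, rose by 0.99 (adjusted p = 0.0298, SE 0.21), with exposed arrays between −0.49 and 0.12 and vehicle arrays between −1.35 and −1.13. Its 2 probes gave 1.35 and 0.63, and the second was not well above background on any vehicle array. Isyna1, which makes inositol phosphate, rose by 0.73 (adjusted p = 0.0393, SE 0.16), with exposed arrays between −0.21 and 0.24 and vehicle arrays between −0.92 and −0.59. Psmb4, a subunit of the proteasome, had the smallest difference of the 20, 0.29 (adjusted p = 0.0345, SE 0.06). Psmb4 was the only one of 38 proteasome genes called, although 36 of the 38 fold changes were positive, with a median of 0.12. With slide as a block Psmb4, Psmb5, Psmc4 and Psme1 rose, where 1.12% of all genes did.

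Of the 6 genes that fell, Siglecf, Ear1, Fabp1, Bcan and Ces1d are described here. In bulk tissue, fewer cells of a type and less RNA per cell cannot be told apart. Siglecf, a lectin of alveolar macrophages and eosinophils, had log2 ratios of 1.36, 1.08, 1.22, 1.33 and 1.09 on the exposed arrays and of 2.38, 2.74, 2.84, 2.71 and 1.75 on the vehicle arrays. The exposed arrays were close together and below all vehicle arrays, of which replicate 5 was the lowest. Siglecf fell by 1.27 on the log2 scale (adjusted p = 0.0103, SE 0.25). Ear1, a ribonuclease of the eosinophil-associated family, had 3.28, 3.23, 3.17, 3.63 and 2.95 against 5.05, 5.02, 5.34, 5.17 and 4.25, and fell by 1.71 (adjusted p = 0.0106, SE 0.34). Fabp1, a fatty acid binding protein, had 3.30, 2.03, 3.52, 3.14 and 3.17 against 4.62, 4.81, 5.54, 5.35 and 4.61, and fell by 1.95 (adjusted p = 0.0302, SE 0.43), the largest fall of the 6, at 3.87-fold lower. No exposed array of these 3 genes reached the lowest vehicle array. Bcan, the proteoglycan brevican, fell by 1.31 (adjusted p = 0.026, SE 0.28), with exposed arrays between 0.03 and 0.65 and vehicle arrays between 1.41 and 2.14. Ces1d, a carboxylesterase of lung and fat, fell by 0.93 (adjusted p = 0.0263, SE 0.20), and here exposed replicate 4 at 6.27 was just above vehicle replicate 5 at 6.26.

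The calls of these 6 genes moved with the processing. With normexp and loess none of the 6 passed, with adjusted p from 0.0556 for Siglecf, Ear1 and Bcan to 0.115 for Ces1d among those described, and all 6 were negative there. With normexp, loess and the slide block together all 20 genes were called. Without vehicle replicate 3 or vehicle replicate 4 none of the 6 was called.

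**Figure D3:**
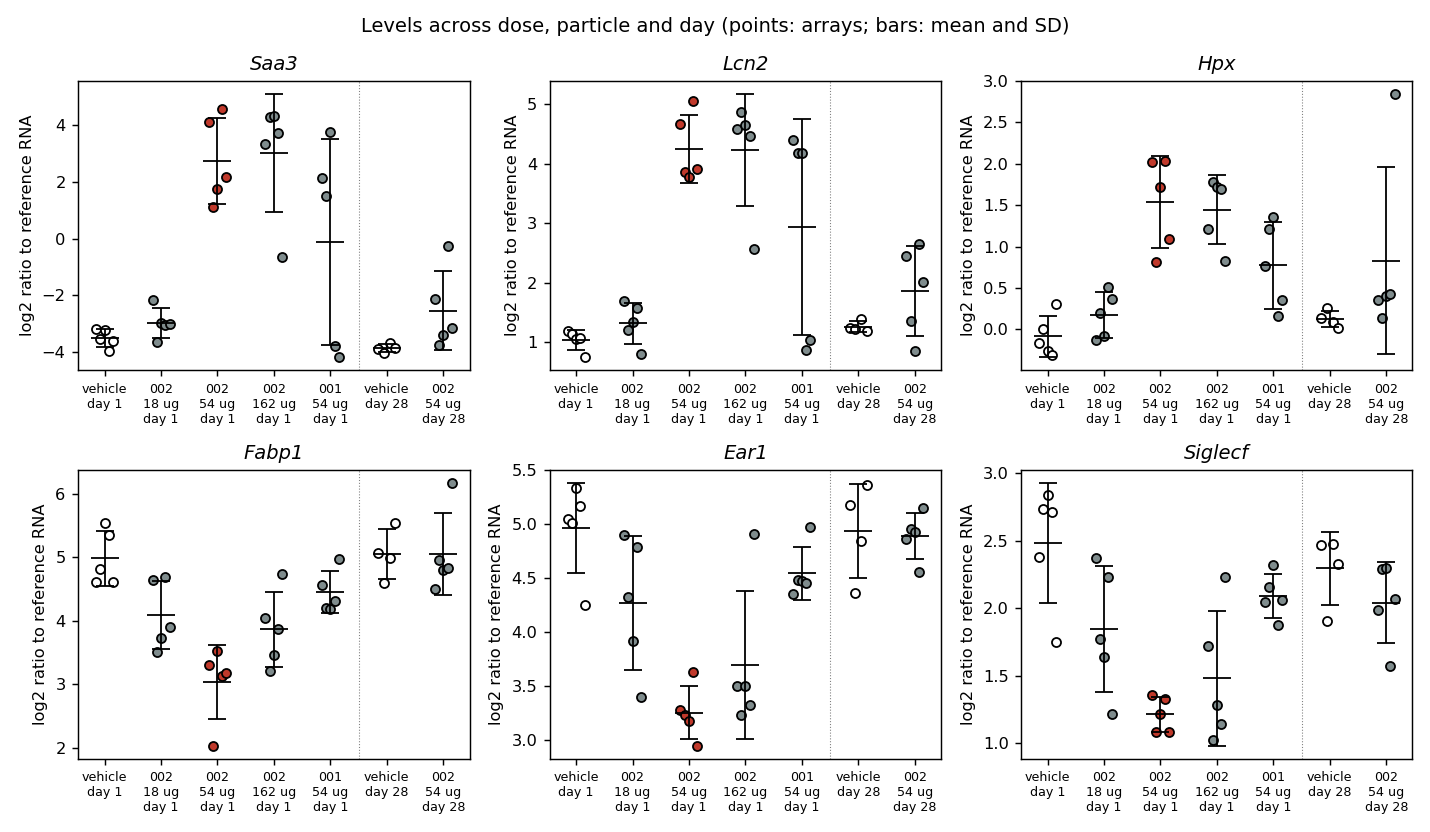
Log2 ratio to reference RNA of 3 genes that rose (Saa3, Lcn2, Hpx) and 3 that fell (Fabp1, Ear1, Siglecf) on every array of 7 groups, with NRCWE-002 and NRCWE-001 shortened to 002 and 001, points for arrays and bars for the mean and SD. NRCWE-002 at 54 µg on day 1 is filled in red, and the dotted line parts day 1 from day 28.

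Other genes of alveolar macrophages did not all go the same way. Ear10 had exposed arrays between 1.46 and 2.54 and vehicle arrays between 3.20 and 3.80, and differed by −1.43 (adjusted p = 0.09), and Rnase2a, another ribonuclease of that family, by −1.08 (adjusted p = 0.209). Both were called lower with slide as a block, at −1.55 and −1.41. Ear6 of the same family was above background on all 10 arrays and differed by −0.07 (adjusted p = 0.963). Ear1, Ear10 and Rnase2a have close paralogs, so that their probes may read more than 1 of them. The macrophage genes Fabp4, Chil3, Itgax, Car4 and Marco differed by −0.01, 0.04, 0.10, 0.14 and 0.33, and Mrc1 and Pparg by −0.38 and −0.37. None of these was called in either fit. Of 17 genes of alveolar macrophages and eosinophils, a list drawn up after values were seen, 3 fell and none rose, where 0.034% of all genes fell. With slide as a block 5 fell, where 0.397% of all genes did. Of the 17 fold changes 10 were negative and 7 positive, with a median of −0.07. As this list followed the values, its counts are no test against the shares of all genes. The eosinophil genes Epx and Prg2 were above background on 1 and 3 exposed arrays and on 0 and 2 vehicle arrays, and Il5ra on none. The eosinophil receptor gene Ccr3 was above background on all 10 and differed by 0.05 (adjusted p = 0.93). Of 14 general macrophage markers, Siglecf alone was called, 7 fold changes were positive and 7 negative, and with slide as a block the lipopolysaccharide co-receptor Cd14 rose by 1.25.

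Genes of inflammatory signalling had positive fold changes that mostly did not pass. None of 14 CC chemokines and receptors was called, although 11 were positive and the median was 0.69. Ccl17, a chemokine for type 2 T cells, had 3.38, 3.20, 2.99, 3.41 and 2.88 on the exposed arrays against 2.48, 1.24, 1.93, 1.73 and 1.58. The groups did not overlap, and the difference of 1.38 had an adjusted p of 0.35 without the slide term and 0.0129 with it, at 2.00. Ccl2 and Ccl7, which recruit monocytes, differed by 1.39 and 1.65 and were called in neither fit. Among 8 CXC chemokines and receptors of neutrophil recruitment none was called. Cxcl5 was above background on 5 exposed arrays and on 0 vehicle arrays. Its exposed mean was at least 4.07-fold the vehicle mean, without a call (adjusted p = 0.524). With the slide term Cxcl5 and the receptor gene Cxcr2 were called higher (adjusted p = 0.0431 and 0.03). Cxcl3 was above background on 3 exposed arrays and on 0 vehicle arrays. Its exposed mean was at least 1.42-fold the vehicle mean, a difference that was not called (adjusted p = 0.524). Il1b, the cytokine interleukin-1 beta, had 3.42, 1.28, 2.56, 3.20 and 2.44 against 1.29, 1.27, 1.46, 1.82 and 1.20. Exposed replicate 2 lay among the vehicle arrays, and the difference of 1.17 had an adjusted p of 0.35 without the slide term and 0.0407 with it, at 1.38.

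Of 14 genes of NF-kB signalling and feedback, 13 were positive and none was called without the slide term. With it 4 were called higher, where 1.12% of all genes were, namely Nfkb2 at 0.65, Nfkbib at 0.31, Nfkbiz at 0.85 and Tnip1 at 0.37. Nfkbia, the inhibitor that NF-kB itself induces, differed by 0.74 (adjusted p = 0.0676). Of 16 genes of interleukin-6 and STAT3 signalling none was called in either fit, with a median of 0.14. Il6 itself was above background on 5 exposed arrays and on 0 vehicle arrays. Its exposed mean was at least 1.51-fold the vehicle mean, a difference that was not called (adjusted p = 0.653). Of 19 neutrophil markers none was called, 13 fold changes were positive and 6 negative, and the median was 0.26. With slide as a block 6 rose, where 1.12% of all genes did, among them Lrg1 at 1.02, Csf3r at 0.74 and Clec4d at 1.16. The granule genes S100a8 and S100a9 differed by 0.44 and −0.11 and were called in neither fit. Among immediate early genes Egr1 differed by 1.45 (adjusted p = 0.09) and was called with the slide term at 1.49 (adjusted p = 0.0322), while Junb at 0.61 was called in neither fit. C3, the central complement protein, differed by 0.95 and rose with the slide term, at 1.30. Of 18 Nrf2 antioxidant targets Hmox1 alone was called. Mt2, a metallothionein, differed by 1.17 and rose with the slide term, at 1.63, and Mcm2, a helicase subunit of DNA replication, by 0.64 and 0.71.

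**Figure D4:**
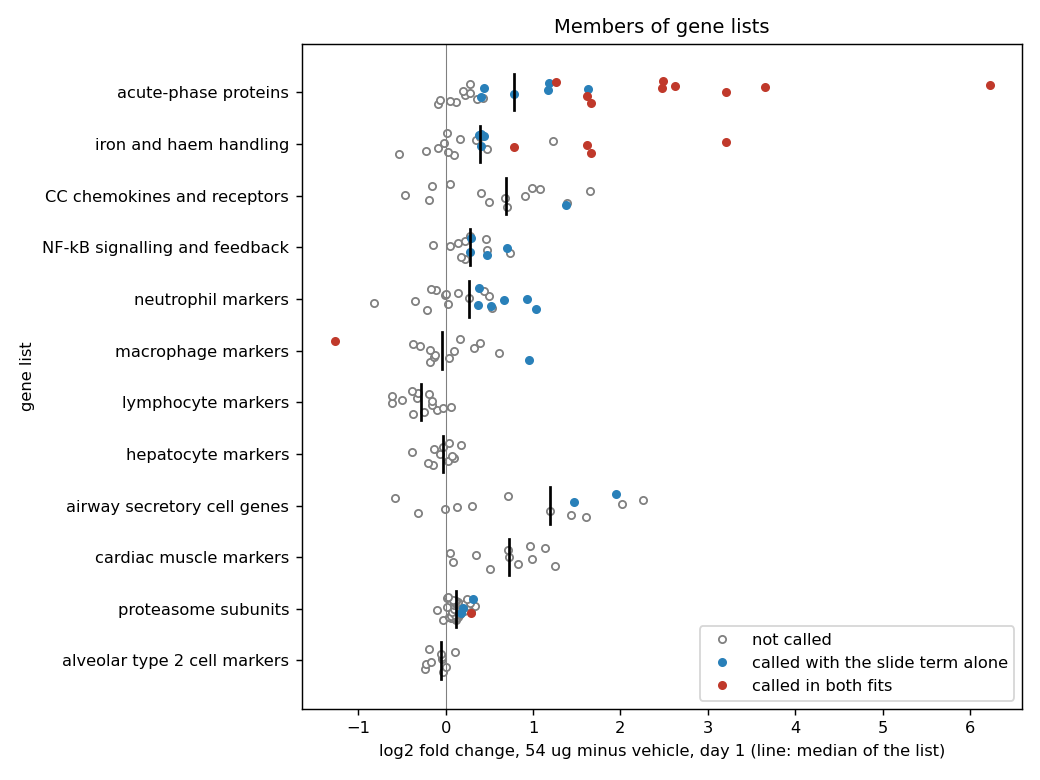
Log2 fold change of NRCWE-002 54 µg against vehicle on day 1 for each tested member of 12 gene lists, coloured by whether it was called in both fits, with the slide term alone or in neither, with a line at the median of each list. The acute-phase list holds 9 genes called in both fits, and the iron and haem list 4.

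Lists for other cell types were measured beside these results. The 13 airway secretory genes had a median of 1.20, with none called. Their mean log2 ratio was 2.24 to 4.74 on the exposed arrays and 2.24 to 3.62 on the vehicle arrays. With slide as a block Pigr, which carries antibodies across epithelium, rose by 2.18 and Slc26a4, the anion exchanger pendrin, by 2.98. All 11 cardiac muscle markers were positive, with a median of 0.73 and none called, and their mean level ran from 0.16 to 2.60 on the exposed and from 0.13 to 3.07 on the vehicle arrays. Of 14 lymphocyte markers 13 were negative, with a median of −0.28, and none was called in either fit. The alveolar type 2 and type 1 markers had medians of −0.05 and −0.10, the endothelial markers −0.06 and the ciliated cell markers −0.27, and none was called in either fit. The members with the smallest p were Pdpn of type 1 cells at 0.35, Tppp3 of ciliated cells at −0.38 and Klrb1c of natural killer cells at −0.33. Outside the cell lists, Nr1d1 of the circadian clock was −0.21 and Sparc of the extracellular matrix −0.27, and neither was called. Of 6 adipocyte markers, Cidec was the lowest at −0.98 (adjusted p = 0.292), and the mean level of the list was 0.79 to 2.53 on the exposed and 1.12 to 2.53 on the vehicle arrays. The part of these tissue differences in the called genes was not tested. Of the gene lists that the study took from data on other lung diseases, only Biclusters 1, 3, 7 and 8 were looked at here. The study scored its lists by the dose effect of each gene over several doses, not by calls at 1 dose. Bicluster 1 held 2 called genes of 17, Saa3 and Timp1, and Bicluster 8 held 1 of 15, where 0.113% of all genes were called. Biclusters 3 and 7 held none of 17 and of 19, with Syt12 of Bicluster 7 at 0.21. The fit with the slide term called 2 in each of Biclusters 1, 3 and 8 and none in Bicluster 7, where 1.12% of all genes were called higher. Those of Bicluster 3 were Mt2 and Slc26a4. Biclusters 1, 3, 7 and 8 had medians of 0.14, 0.25, 0.165 and 0.12, where that of all genes was 0.01. Of their fold changes 14 of 17, 16 of 17, 14 of 19 and 10 of 15 were positive. The mean log2 ratio of Bicluster 3 was 0.20 to 1.01 on the exposed and −0.13 to 0.18 on the vehicle arrays. That of Bicluster 7 was −0.67 to −0.29 and −0.78 to −0.69. These ranges did not overlap for Bicluster 1 either, and overlapped for Bicluster 8.

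Dose was examined next, and these comparisons share the 5 arrays of 54 µg that chose the genes. Of 17627 genes, 5 differed between 54 and 18 µg, or 0.0284%, all higher at 54 µg, namely Saa2, Orm2, Saa1, Saa3 and Hpx. Saa3 had a mean of −3.50 ± 0.31 (SD, n = 5) in vehicle, −2.96 ± 0.53 at 18 µg, 2.73 ± 1.52 at 54 µg and 2.99 ± 2.08 at 162 µg. The step from 18 to 54 µg was 5.68 for Saa3 (SE 1.16, adjusted p = 0.0332), 2.59 for Saa2 (adjusted p = 0.00731) and 1.36 for Hpx (adjusted p = 0.049). These calls rested on few arrays, as none was left without exposed replicate 1 or without exposed replicate 4, and none with only the day 1 arrays in the fit. Without any one of the 18 µg arrays 1 or 2 were left. Of the 5 arrays at 18 µg, 4 lay above all vehicle arrays for Saa3 and for Lcn2, 1 for Saa2 and 0 for Serpina3n and Hmox1. Fabp1 had 4.99 ± 0.43 in vehicle, 4.09 ± 0.54 at 18 µg, 3.03 ± 0.58 at 54 µg and 3.86 ± 0.59 at 162 µg.

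No gene was called between 162 and 54 µg by limma with or without the slide block, and 479 passed at an unadjusted p below 0.05, or 820 with the block. For all 20 genes the 95% interval of this difference held 0. That of Saa3 was −2.05 to 2.58 around 0.27, that of Lcn2 −1.29 to 1.24 around −0.02 and that of Fabp1 −0.03 to 1.69 around 0.83. The intervals are wide enough to hold a change of more than 2-fold for each of these genes. The 2 genes with the smallest p were Mal, a lipid raft protein, at 0.48, and Rbm5, a splicing regulator, at −0.54, each with an adjusted p of 1.

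NRCWE-001, the uncharged particle, was compared at the same dose and day, with the same number of arrays, and this contrast shares the 54 µg arrays too. Replicates 1 to 3 of NRCWE-001 lay on slides 13, 15 and 17, which also held vehicle replicates 1 to 3 but none of these NRCWE-002 arrays. Slides 8 and 10 held 1 array of each particle at this dose and day. Particle and slide can thus be told apart only in part. None of the 20 genes differed between the particles by adjusted p. In all 20 the mean of NRCWE-001 lay between vehicle and NRCWE-002. The unadjusted 95% interval of the difference excluded 0 for all but Psmb4, Tnfrsf9 and Isyna1. Over all 17627 genes, 1089 passed at an unadjusted p below 0.05 in this limma contrast. The 20 genes were chosen by the same NRCWE-002 arrays, which favours both outcomes, so these counts are no test of a particle difference. Saa3 was higher with NRCWE-002 by 2.85 (interval 0.53 to 5.16, adjusted p = 0.607) and Lcn2 by 1.32 (interval 0.06 to 2.58, adjusted p = 0.78). Ear1 was lower by 1.30 (interval −1.98 to −0.61 for the difference, adjusted p = 0.151). The NRCWE-001 mice were uneven, as 3 of 5 lay above all vehicle arrays for Saa3, which ran from −4.16 to 3.75, where all 5 NRCWE-002 mice did.

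Of all genes, 17 differed between the particles at 54 µg, or 0.0964%, and none of them was among the 20. Rsrp1, a serine- and arginine-rich protein, had −0.50, −0.88, 0.16, −0.55 and −0.53 with NRCWE-002 and ran from 0.76 to 0.98 with NRCWE-001, a difference of −1.32 (SE 0.23, adjusted p = 0.00479). Its vehicle mean was −0.02 ± 0.33, nearer to that of NRCWE-002, −0.46 ± 0.38. The uncharacterised 1700029I15Rik differed by −0.56 (adjusted p = 0.00479). Neat1, the RNA scaffold of nuclear paraspeckles, differed by −1.52, the splicing-related genes Son and Luc7l3 by −0.56 and −0.75 and the RNA Snhg20 by −1.29. Tagln, an actin-binding protein of smooth muscle, was the only one higher with NRCWE-002, by 0.75. The slide block gave 32 genes, 13 of them shared with the 17, and Neat1 (adjusted p = 0.0801), Snhg20 (adjusted p = 0.0801) and Son (adjusted p = 0.131) lost their calls. The calls also moved with single arrays. No gene was called without NRCWE-002 replicate 2, 3 without NRCWE-002 replicate 5 and 9 and 10 without NRCWE-002 replicates 1 and 4. Without NRCWE-001 replicates 1, 2, 3 and 5 the counts were 4, 3, 8 and 4.

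On day 28 the 54 µg mice were nearer to their own vehicle. Saa3 was −2.53 ± 1.40 (n = 5) against −3.86 ± 0.14 (n = 4), and Lcn2 1.86 ± 0.75 against 1.26 ± 0.09. Fabp1 was 5.05 ± 0.65 against 5.05 ± 0.39 and Ear1 4.89 ± 0.22 against 4.94 ± 0.44. The difference between the effect on day 28 and that on day 1 was opposite in sign to the day 1 effect for all 20 genes, and it holds the arrays that chose them. It was called for 0 of 17627 genes in limma with or without the slide block, with 883 genes at an unadjusted p below 0.05, or 1258 with the block. The difference was −4.90 for Saa3 (SE 1.68), −2.42 for Saa2 (SE 0.66) and 1.96 for Fabp1 (SE 0.63), each with an adjusted p of 0.96. Prickle1, a planar polarity gene, and Trmt6, a tRNA methyltransferase subunit, had the smallest p, at 1.01 and −0.40.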

How the data were processed

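RNA from 1 mouse lung per array was hybridised with a common reference to 2-colour Agilent arrays. Per the labels, the authors read the arrays with Agilent Feature Extraction. The values used are the authors' deposited log2 ratios (lung over reference), LOWESS-normalized array by array, and none was missing. Direction and scale were checked against the deposited scanner intensity values (r 0.988 to 0.996 per array). Dyes were not swapped, so ratios to the reference are open to dye bias that cancels in differences between groups. Probe accessions were matched to symbols in a RefSeq table (GRCm38.p6), and 66.7% of 41174 probes matched. A probe was kept where its lung signal stood well above background on 4 or more of the 69 arrays, and a gene was the median of its probes, of which 11355 of 17627 genes had 1.

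Groups came from the labels. Each contrast was fitted with limma 3.58.1 in R 4.3.3 on all 69 arrays with 14 group means, 2-sided, with Benjamini-Hochberg adjustment over all genes and a threshold of 0.05. A bound on a fold compared group means. In the dim group each array gave the larger of its lowest signal well above background and the gene's own signal. No allowance was made for spread. The fit was also run on simulated data with known changes, independent noise, the same spread in every group and no slide effect. That run cannot speak to the dependence on slide or to unequal spread. Alternatives were slide or scan day as blocks, scanner intensity values with normexp (offset 50) and loess, the scanner software's processed signals, uncorrected signals, other probe filters, other spread models, fewer arrays and single probes. Named genes were the called genes (at most 20), the member of each list with the smallest unadjusted p if below 0.05, the 6 genes with the smallest p called with the slide block alone, the 4 largest falls among genes whose arrays did not overlap and whose unadjusted p was below 0.01, and the 2 genes with the smallest p in each other contrast. Further list members are named to describe their list. Members and lists were chosen with earlier results of these data known. 1 called gene is not reported here.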

Additional observations from a re-analysis of the deposited data

Results flagged for a closer look

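In 6 of the 106 groups of 5 arrays behind the named genes, 1 array stood apart from the other 4, and chance alone gives about 1 in 20. Exposed replicate 2 was low for Fabp1, at 2.03 where the others ran from 3.14 to 3.52, and for the ciliated cell gene Tppp3, at 4.35 where they ran from 4.97 to 5.20. Exposed replicate 4 was low for Bcan, at 0.031 where the others ran from 0.48 to 0.65. Exposed replicate 5 was high for Rbm5, at 1.42 where the others ran from −0.07 to 0.32. Vehicle replicate 4 was low for Serpina3n, at 1.12 where the others ran from 1.74 to 1.85, and vehicle replicate 5 was low for Ces1d, at 6.26 where the others ran from 6.60 to 6.73.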

How the results depend on the processing

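The number of genes called between NRCWE-002 54 µg and vehicle, 20, became 267 with slide as a fixed block, 221 with slide as a random block and 166 with scan day as a block. It was 95 with only the compared groups and 48 with only day 1 in the fit. These 2 fits kept 18 and 14 of the 20 genes. With only the compared groups Ces1d and Psmb4 lost their calls. With only day 1 Saa1, Timp1, Tnfrsf9, Hmox1, Psmb4 and Serpina3n lost theirs. It was 11 with normexp and loess, 12 with the processed signals and 13 with uncorrected, median-centred signals. Joining the slide block with 2 of these, a choice made after seeing the data, gave 242 with normexp and loess and 44 with uncorrected signals. The calls split 14 higher to 6 lower in the deposited ratios, 11 to 0 with normexp, 12 to 0 with the processed signals and 10 to 3 with uncorrected signals. Leaving out 1 array gave 6 to 25. Against NRCWE-001, 17 became 32, 76 and 43 under the 3 blocks, 10 with the processed signals, 6 with uncorrected signals, 27 with only the compared groups, 112 with only day 1, and 0 to 22 with 1 array left out. Against 18 µg, 5 became 28, 50 and 19 under the 3 blocks, 2 with the processed signals, 8 with a stricter filter on dim probes, 21 with only the compared groups, 0 with only day 1, and 0 to 6 with 1 array left out. The other 2 contrasts gave 0 in each fit run. The cause of these changes was not tested. Where 1 array was left out, the number of arrays and the array lost changed together. All 20 called genes kept their direction in every fit. Rbm5, not called, turned to −0.0589 with normexp, −0.106 with processed signals, and with slide as a block −0.1336 and −0.1303, and ran from −0.1291 to 0.2428 with 1 array left out. Cidec was 0.0502 with processed signals, and Mal 0.0204 with normexp and the block. No paired analysis was possible because the labels number the samples across the whole series, and the replicate numbers used here only follow that order. A group of 5 arrays and median lung signals of 116 to 216 over a background of 62 to 68 limit what small or dim differences can show.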
